A study of Mus musculus with 7 samples.

Results

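The muscle microRNAs (miRNAs) of the miR-1, miR-133 and miR-206 families were followed in the colorectum of mice. They were taken by name from a count table of mature miRNAs: mmu-miR-1a-3p, mmu-miR-1a-2-5p, mmu-miR-1b-5p, mmu-miR-133a-3p, mmu-miR-133a-5p, mmu-miR-133b-3p and mmu-miR-206-3p, 7 of 1915 entries (the mouse prefix is left out from here on). Small RNA was sequenced from wild-type C57BL/6 females that were 7 weeks old when first injected, per the labels. The 3 mice with colorectal cancer (CRC: M4, M5, M6) were injected with azoxymethane (AOM), a colon carcinogen, at a dose of 10 mg per kg into the peritoneum. After 5 days their water held dextran sodium sulfate (DSS), an agent that damages the gut epithelium, at 2.5% over 7 days, followed by 14 days of plain water. Per the labels this was repeated 3 times. They define a stage T1 at day 17 from induction, without saying which mice were taken then. The 3 healthy mice (M1, M2, M3) had received 0.9% saline. No group had AOM or DSS alone, so carcinogen, injury and tumour cannot be told apart. The labels list 2 libraries of M1, and the table holds 1 column of that name, used here as 1 mouse.

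miR-1 and miR-133 are made together from shared primary transcripts in striated muscle and, at lower levels, in smooth muscle. miR-1 represses genes such as Hdac4 and favours muscle differentiation, and miR-133 restrains serum response factor, a regulator of muscle genes and growth. miR-206 has the miR-1 seed, the bases that pair with target messenger RNAs, and is known from skeletal muscle. In the gut wall the external muscle layers are smooth muscle, while striated muscle lies at the anal sphincter.

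The sequences that set these families apart, and a passenger strand of miR-1a, are shown 5′ to 3′ with the seed (bases 2 to 8) in capitals, from RefSeq's table on GRCm38.p6. That table matched 2 of the 7 members.
miR-206-3p: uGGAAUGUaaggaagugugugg
miR-133b-3p: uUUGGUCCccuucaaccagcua
miR-1a-1-5p: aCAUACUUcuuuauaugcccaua
In the deposited sequences miR-1a-3p has the seed of miR-206-3p and is identical to it at 18 of 22 positions. miR-133a-3p has the seed of miR-133b-3p and is identical to it at 21 of 22 positions, differing in the last base. miR-1b-5p is the reverse complement of miR-1a-3p over all of its 21 bases.

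Each family comes from several loci. Mir206 lies on chromosome 1 from 20679010 to 20679082 and Mir133b from 20682769 to 20682887 of GRCm38, 3686 bases apart, and both overlap exons of the long noncoding RNA Gm28653 on the same strand. Mir1a-1 (180389048 to 180389124) and Mir133a-2 (180398379 to 180398482) lie on chromosome 2 with no overlapping gene in GENCODE M21. Mir1a-2 and Mir133a-1 form a similar pair on chromosome 18, within an intron of Mir133a-1hg and opposite to an intron of Mib1. Mir1b lies there on the other strand and overlaps Mir1a-2 by 72 bases. The deposited table assigns miR-1a-3p, miR-133a-3p and miR-133a-5p to 2 hairpins each, so their counts cannot be assigned to either locus.

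Total counts ran from 3206127 in M6 to 15280434 in M2. Levels below are CPM, reads of a miRNA per 1e6 reads, on library sizes scaled by TMM, a method that assumes most miRNAs unchanged. The TMM factors were 0.720, 0.582 and 1.10 in M1, M2 and M3 and 0.949, 1.55 and 1.47 in M4, M5 and M6. All members are 21 to 23 bases long, so their levels are on 1 length scale. Across 304 miRNAs at 50 CPM or more, the profiles of M3 and M4 resembled each other more (r = 0.967 of log2 CPM) than M3 resembled the healthy M1 (0.908) or M2 (0.900). M4 resembled the healthy M1 (0.916) and M2 (0.908) more than the CRC mice M5 (0.887) and M6 (0.894). M1 and M2 were alike (0.993), as were M5 and M6 (0.985). These correlations are across miRNAs, which are not replicates. M3 and M4 therefore stand apart from the other mice of their groups, and results are given with and without them.

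miR-1a-3p, the guide strand and the most abundant member, had lower values in every CRC mouse. The healthy mice M1, M2 and M3 had 3132, 3457 and 1091 CPM of it. The CRC mice M4, M5 and M6 had 862, 326 and 376 CPM. The groups did not overlap, but M3 lay nearer to M4 than to M1 or M2: M4 was below M3 by 0.34 log2 units, and the mean of M1 and M2 was above M3 by 1.59. Healthy mice averaged 2560 ± 1283 CPM (SD, n = 3), and the mean of the CRC group was 521 ± 296 CPM (SD, n = 3). The log2 fold change of miR-1a-3p, CRC minus healthy, was -2.30 (SE 0.57, adjusted p = 0.0622, edgeR's quasi-likelihood test with Benjamini-Hochberg adjustment), so it did not pass at 0.05.

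miR-1b-5p, annotated on the strand opposite to miR-1a, followed the same order. It had 1587, 1725 and 535 CPM in M1, M2 and M3 and 433, 159 and 181 CPM in M4, M5 and M6. The groups did not overlap here either, and the log2 fold change was -2.32 (SE 0.59, adjusted p = 0.0622, edgeR). Among 878 tested miRNAs miR-1b-5p had the 6th and miR-1a-3p the 7th lowest log2 fold change. Their entries are reverse complements, so the counting could have given reads of one molecule to both.

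The passenger strands of miR-1a, which are mostly degraded after the guide is loaded, were scarce. miR-1a-2-5p had 51, 33 and 35 reads in the healthy mice, or 5.70, 3.71 and 3.85 CPM, and 8, 6 and 4 reads in the CRC mice, or 1.28, 1.09 and 0.850 CPM. Every CRC mouse was below every healthy mouse, with a log2 fold change at -2.02 (SE 0.52, adjusted p = 0.0622, edgeR). With at most 8 reads in a CRC library, the counting error of each value is large. The strand printed above, miR-1a-1-5p, is not a member and comes from chromosome 2 alone. It had 26.2, 22.0 and 26.0 CPM in the healthy mice and 15.5, 3.80 and 2.97 CPM in the CRC mice. There M3 was level with M1 and M2, unlike for the guide strand. Its log2 fold change was -1.73 (SE 0.65, adjusted p = 0.152, edgeR).

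miR-133a-3p, the guide strand of miR-133a, was highest in the healthy mouse M3. Its levels were 419, 511 and 1019 CPM in M1, M2 and M3, and 396, 152 and 177 CPM in M4, M5 and M6. The groups did not overlap, although M4 and M1 differed by little. The log2 fold change was -1.43 (SE 0.54, adjusted p = 0.151, edgeR). As a share of all reads, before TMM scaling, the groups did overlap: 0.0375% in M4 against 0.0302% in M1 and 0.0297% in M2.

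The other arm, miR-133a-5p, did not have that peak in M3. It had 53.4, 66.5 and 42.7 CPM in M1, M2 and M3 and 23.2, 10.3 and 10.6 CPM in M4, M5 and M6. Every CRC mouse was below every healthy mouse (log2 fold change -1.88, SE 0.49, adjusted p = 0.0622, edgeR). miR-133b-3p, from chromosome 1, had its peak in M3 like miR-133a-3p. It had 44.6, 40.4 and 132 CPM in the healthy mice and 41.0, 18.1 and 18.9 CPM in the CRC mice. M4 lay between M1 and M2, so the groups overlapped (log2 fold change -1.47, SE 0.60, adjusted p = 0.176, edgeR). Without M3 the value was -0.76 (SE 0.50, adjusted p = 0.312, edgeR), so the size rested largely on that mouse.

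miR-206-3p had a pattern unlike that of the other 6 members. Its counts were 22, 20 and 1257 in M1, M2 and M3 and 849, 11 and 113 in M4, M5 and M6. These are 2.46, 2.25 and 138 CPM in the healthy mice and 136, 1.99 and 24.0 CPM in the CRC mice. M3 and M4 were high, M6 was intermediate, and M1, M2 and M5 were low. The difference thus ran within both groups, and the groups overlapped. The healthy mean was 47.7 ± 78.5 CPM and the CRC mean 53.9 ± 71.6 CPM (SD over 3 mice). The log2 fold change was 0.18 (SE 1.58, adjusted p = 0.965, edgeR). It rested on single mice, with 4.50 (SE 1.59, adjusted p = 0.104, edgeR) without M3 and -1.84 (SE 2.31, adjusted p = 0.601, edgeR) without M4.

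**Figure D1:**
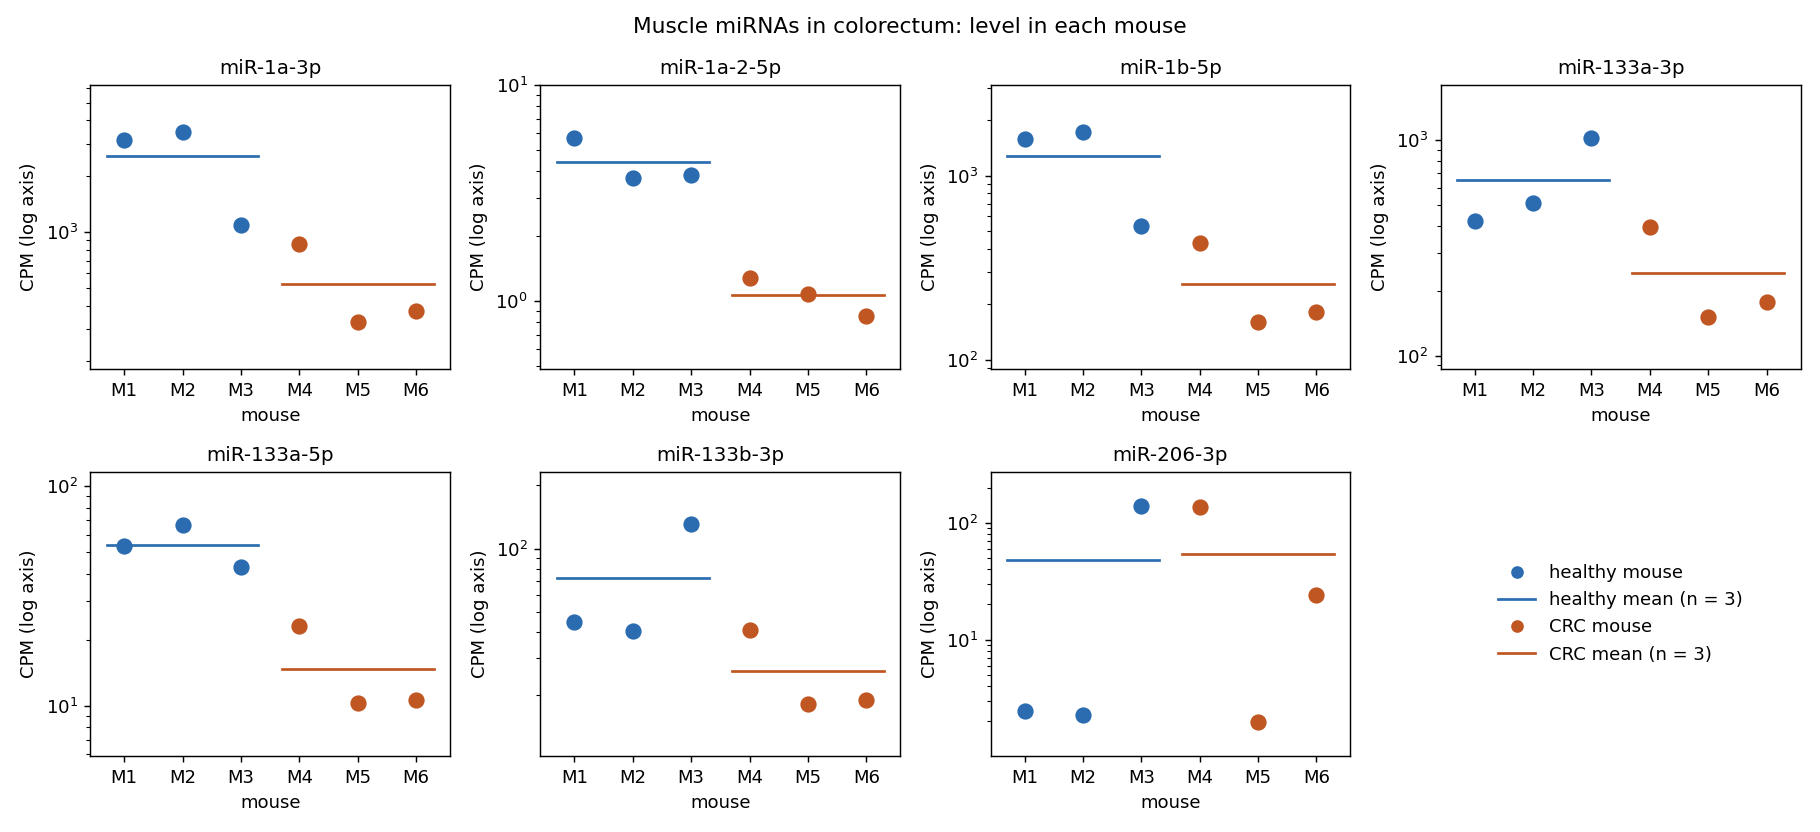
Level of each muscle miRNA (CPM on TMM-scaled library sizes, log axis) in each mouse, with healthy mice in blue, CRC mice in orange and horizontal lines at the group means (n = 3 each). Levels of miR-1a-3p and miR-1b-5p are highest in M1 and M2 and lowest in M5 and M6, the 3p arms of miR-133 peak in M3, and miR-206-3p is high in M3 (138 CPM) and M4 (136 CPM).

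The study sets diseased against healthy bowel. All 7 members passed the filter on low counts, and 0 of 7 passed edgeR's test over all 878 miRNAs, in which 0% were called lower and 2.28% were called in either direction. Before adjustment, 6 of 7 members had p under 0.05, all with lower values in CRC, and 9.68% of all tested miRNAs did so too. Every CRC mouse was below every healthy mouse for 5 of 7, against 12.4% of all tested miRNAs. The median log2 fold change of the members was -1.88, and that of all tested miRNAs was -0.03. The 7 entries are fewer than 7 separate measurements, since several share a hairpin or a sequence.

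In these bulk samples, fewer muscle cells and less of a miRNA per cell cannot be told apart. With total counts as the only scaling 0 members were called (4.9% of all miRNAs in either direction), the median of all miRNAs moved to 0.62 and that of the members to -1.21. There 3 of 7 members had an unadjusted p under 0.05 with lower values, against 1.82% of all miRNAs. Within a mouse a scaling multiplies all miRNAs by 1 factor, so the members' distance from the median of all does not test it. The shift between groups was not the same for all members. The log2 fold change of miR-1a-3p went from -2.30 on the TMM scale to -1.55 by total counts, and that of miR-206-3p from 0.18 to 0.10. Summed over the 7 entries, the members took 0.378%, 0.338% and 0.327% of all reads in M1, M2 and M3, and 0.179%, 0.104% and 0.116% in M4, M5 and M6. The groups did not overlap in this sum, and M4 had the highest share among the CRC mice.

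Whether single members passed depended on the tool and on M3 and M4. DESeq2 called 4 members lower, with 4% of all tested miRNAs lower: miR-1a-3p and miR-1b-5p (adjusted p = 0.00262 each, DESeq2), miR-133a-5p (0.00485) and miR-1a-2-5p (0.0253). By limma-voom 0 members passed, as did 0% of all miRNAs in the lower direction, while 6 members had p under 0.05 before adjustment, all lower, against 11.3% of all miRNAs. Without M3, edgeR called miR-1a-3p and miR-1b-5p lower (2 members; 3.18% of all tested were lower and 5.9% called in either direction). Without M4 it called 5, all but miR-133b-3p and miR-206-3p, where 5.64% of all were lower and 19.9% called in either direction. With no filter on low counts it called 2 members (0.627% of all lower), and at a threshold of 0.10 it called 4 (1.82% of all lower).

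Without both M3 and M4, 2 mice against 2, edgeR called 6 members lower, all but miR-206-3p, where 27.4% of all tested miRNAs were lower. In that fit the log2 fold change was -3.51 for miR-1a-3p (SE 0.26, edgeR adjusted p = 2.1e-09) and -1.48 for miR-133b-3p (SE 0.30, edgeR adjusted p = 0.000417). That omission was chosen with the resemblance of these mice known, and 53.2% of all miRNAs were called in either direction. Between M3 and M4 alone, M4 had the lower value for 7 of 7 members, from -0.03 log2 units for miR-206-3p to -1.68 for miR-133b-3p. M4 was below M3 for 437 of the 878 tested miRNAs. Leaving out M1, M2, M5 or M6 alone gave 0 calls among the members (edgeR) and 0, 4, 0 and 0 calls among all miRNAs. At an unadjusted p under 0.05 and lower were 6, 6, 4 and 4 members, against 3.47%, 2.26%, 3.8% and 4.58% of all miRNAs.

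**Figure D2:**
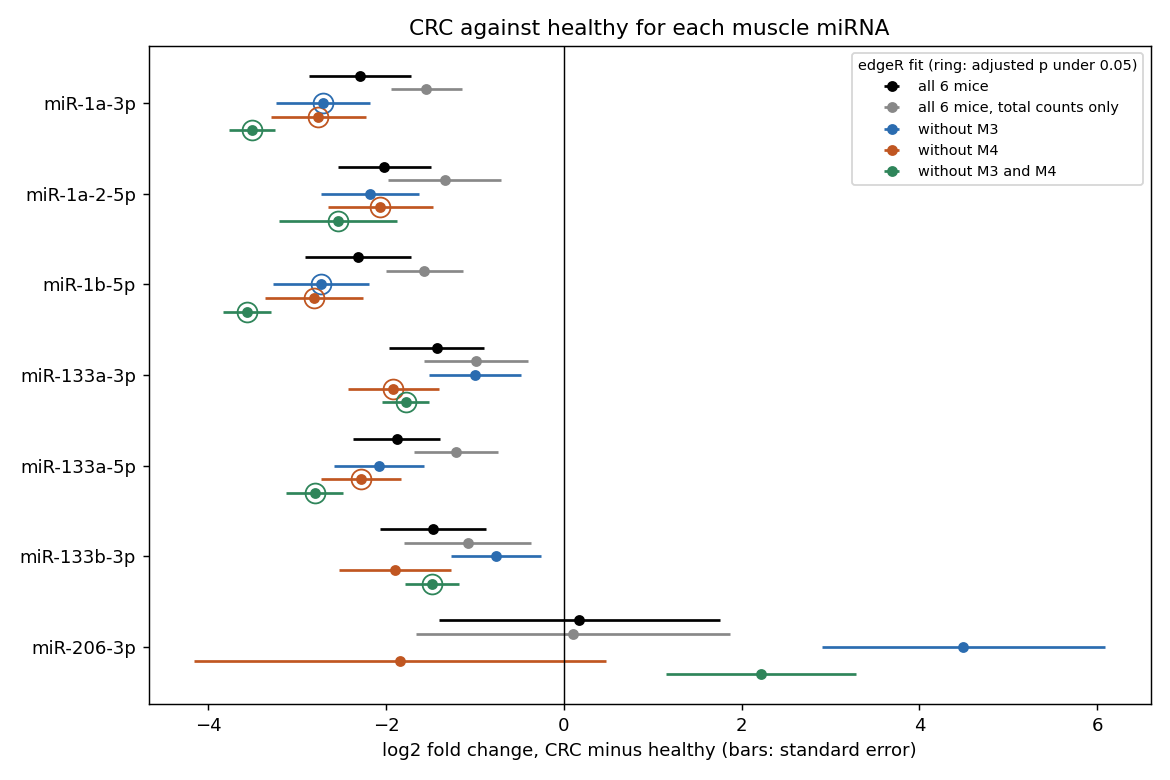
Log2 fold change (CRC minus healthy, horizontal axis, bars show the standard error) of each muscle miRNA in edgeR fits with all 6 mice on the TMM scale (black) or by total counts (grey) and on the TMM scale without M3 (blue), M4 (orange) or both (green). Rings mark an adjusted p under 0.05: 0 of 7 members with all mice on the TMM scale and 6 of 7 without M3 and M4, while miR-206-3p moves from -1.84 without M4 to 4.50 without M3.

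Ratios of counts within a mouse do not depend on the scaling between libraries. In total 9 ratios were compared between the groups by a two-sided exact permutation test, whose smallest possible p with 3 mice against 3 is 0.10. None passed: the exact p-values ran from 0.20 to 0.80, and those adjusted by Benjamini-Hochberg from 0.60 to 0.80. The ratios describe how the members move together from mouse to mouse.

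miR-1b-5p had a nearly constant share of the miR-1a-3p count. The ratio was 50.7%, 49.9% and 49.1% in M1, M2 and M3 and 50.2%, 48.9% and 48.0% in M4, M5 and M6. Its standard deviation over the 6 mice was 0.029 log2 units, within the counting error of a single ratio (0.014 to 0.060). The level of miR-1a-3p itself spanned 326 to 3457 CPM in the same mice. The sources used here do not state how reads matching both strands or several hairpins were counted, so miR-1b-5p is uncertain as a separate miRNA. With reverse-complement entries summed, the pooled miR-1a-3p and miR-1b-5p entry was lower by a log2 value of -2.15 (SE 0.52, edgeR adjusted p = 0.0486). The pooled entry of miR-1a-2-5p with its reverse complement miR-1b-3p was at -2.04 (SE 0.51, edgeR adjusted p = 0.0486). Both passed, where 0.59% of all entries were called lower in that fit.

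The other pair of near-identical entries also moved together. miR-133b-3p had 10.6%, 7.90% and 12.9% of the miR-133a-3p count in M1, M2 and M3 and 10.4%, 11.9% and 10.7% in M4, M5 and M6. Because the sequences differ in the last base alone, reads could be split between them by the counting, and the level of miR-133b-3p is uncertain. By contrast miR-133b-3p did not keep a ratio to miR-206-3p, its neighbour on chromosome 1. Its count was 1814% and 1795% of that of miR-206-3p in M1 and M2, but 95.1% in M3. In M4, M5 and M6 it was 30.3%, 909% and 78.8%. The counts of the 2 entries thus differed in their order from mouse to mouse. Since the count of miR-133b-3p may hold reads of miR-133a-3p, this does not show how the 2 hairpins of Gm28653 differed.

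The arms of miR-133a did not keep a constant ratio. The 5p arm had 12.8% and 13.0% of the 3p count in M1 and M2, 4.19% in M3, and 5.85%, 6.80% and 6.00% in M4, M5 and M6. M1 and M2 stood apart from the other 4 mice, whatever their group (CRC minus healthy -0.51 log2 units, exact permutation p = 0.40). That difference was -1.05 without M3, -0.24 without M1 and -0.23 without M2. The ratio of the guide strands differed more. miR-133a-3p had 13.4% and 14.8% of the miR-1a-3p count in M1 and M2 and 93.4% in M3, but 45.9%, 46.5% and 47.0% in the CRC mice. The CRC mice were alike, with an SD of 0.017 log2 units, and the healthy mice spread around them with an SD of 1.58. miR-206-3p had 0.0785% and 0.0651% of the miR-1a-3p count in M1 and M2 and 12.7% in M3. In M4, M5 and M6 it had 15.7%, 0.611% and 6.38%.

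miR-143-3p, an abundant smooth muscle miRNA, moved with miR-1a-3p but not with miR-133a-3p. Other smooth muscle miRNAs, given below, did not all move with miR-1a-3p. The miR-1a-3p count was 1.69%, 1.83% and 1.57% of that of miR-143-3p in M1, M2 and M3 and 1.45%, 1.42% and 1.88% in M4, M5 and M6. The difference between the groups was -0.11 log2 units (exact permutation p = 0.60). The miR-133a-3p count was 0.226% and 0.271% of that of miR-143-3p in M1 and M2, 1.47% in M3, and 0.664%, 0.659% and 0.883% in M4, M5 and M6. Relative to miR-143-3p, the CRC mice thus lay above M1 and M2 and below M3.

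**Figure D3:**
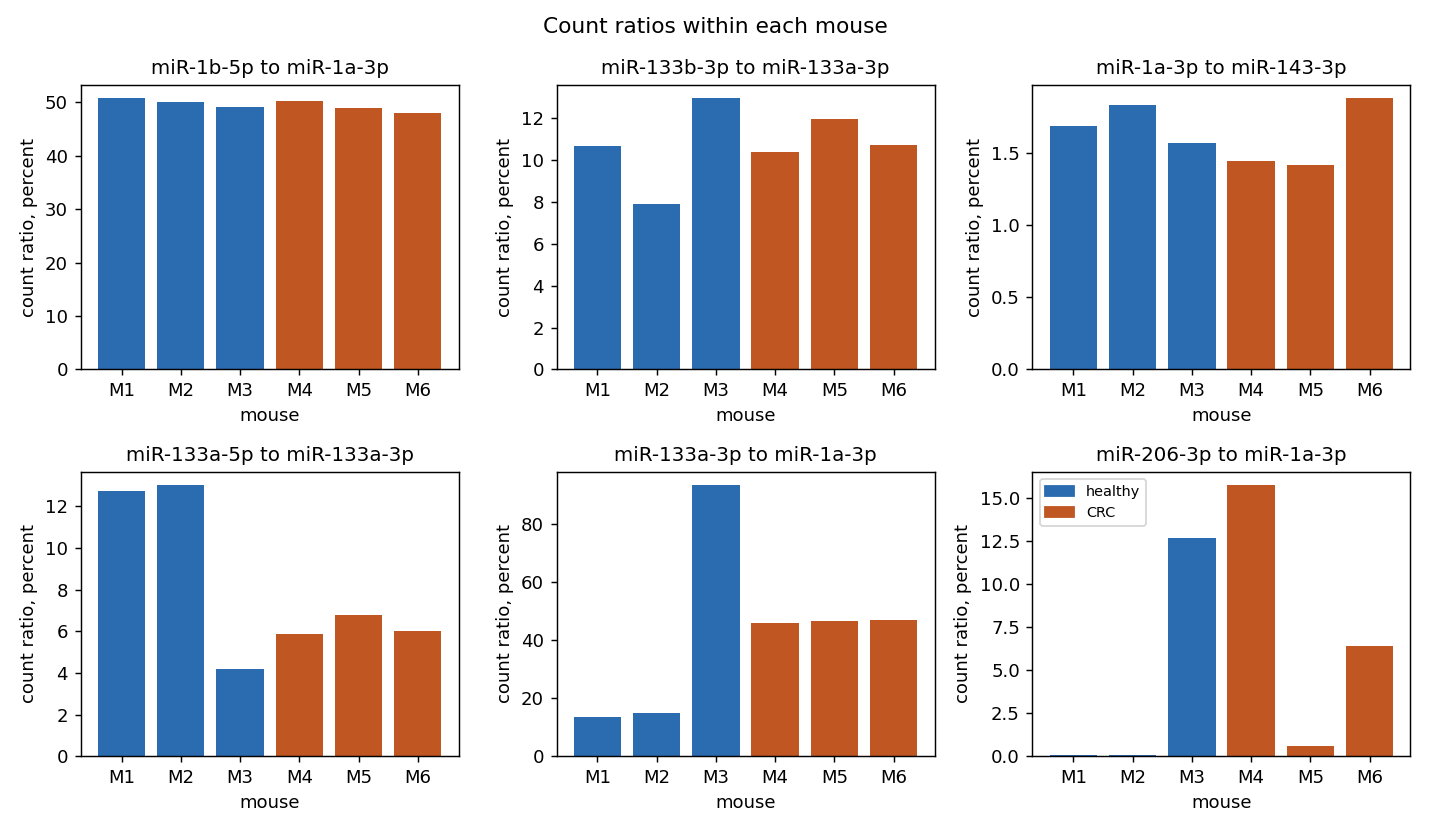
Count ratio, in percent, of 6 pairs of miRNAs in each mouse, with healthy mice in blue and CRC mice in orange. The ratios of miR-1b-5p (48.0% to 50.7%) and of miR-133b-3p (7.90% to 12.9%) to their near-copies stay within narrow ranges, as does miR-1a-3p to miR-143-3p (1.42% to 1.88%), while those in the lower row differ between M1 with M2 and the other mice or rest on single mice.

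The miRNAs most like each guide strand were found among 298 miRNAs at 50 CPM or more, with the members left out, by the root mean square difference of log2 CPM centred on the mean of the 6 mice. Outside the members, the nearest to miR-1a-3p were the neuronal miR-124-3p (0.11 log2 units) and miR-7b-5p (0.15), then miR-143-3p (0.16), miR-490-3p (0.26) and miR-129-2-3p (0.28), where the median over the 298 was 1.20. miR-124-3p had 269, 268 and 83.2 CPM in the healthy mice and 66.7, 28.9 and 26.6 CPM in the CRC mice, the same order of mice but for M1 with M2 and M5 with M6. Outside the members, the nearest to miR-133a-3p was miR-125b-5p (0.45), followed by miR-378a-5p (0.47), miR-361-3p, miR-222-3p (0.49 each) and miR-378d (0.50), with a median of 0.92. None of these had the height of its peak in M3. Among the members miR-1b-5p was at 0.03 from miR-1a-3p, and miR-133a-3p was nearer to miR-133b-3p (0.22) than to its own 5p arm (0.60) or to miR-1a-3p (1.00).

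None of the 298 was close to miR-206-3p. The nearest was miR-205-5p, an miRNA of squamous epithelium, at 1.76 log2 units, where the median was 2.66. It had 437 and 588 CPM in M1 and M2, 4256 CPM in M3, 2486 CPM in M4, 1393 CPM in M5 and 1269 CPM in M6. Next came miR-365-3p (1.91), miR-142a-3p and miR-132-3p (1.94 each) and miR-142b (1.95). These 5 were also higher in M3 and M4 than in M1 and M2. They were higher in M5 and M6 than in M1 and M2 as well, whereas miR-206-3p was lowest in M5 (1.99 CPM). For miR-365-3p, miR-142a-3p and miR-142b, M5 and M6 were above M4. miR-133b-3p was 2.28 log2 units from miR-206-3p.

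**Figure D4:**
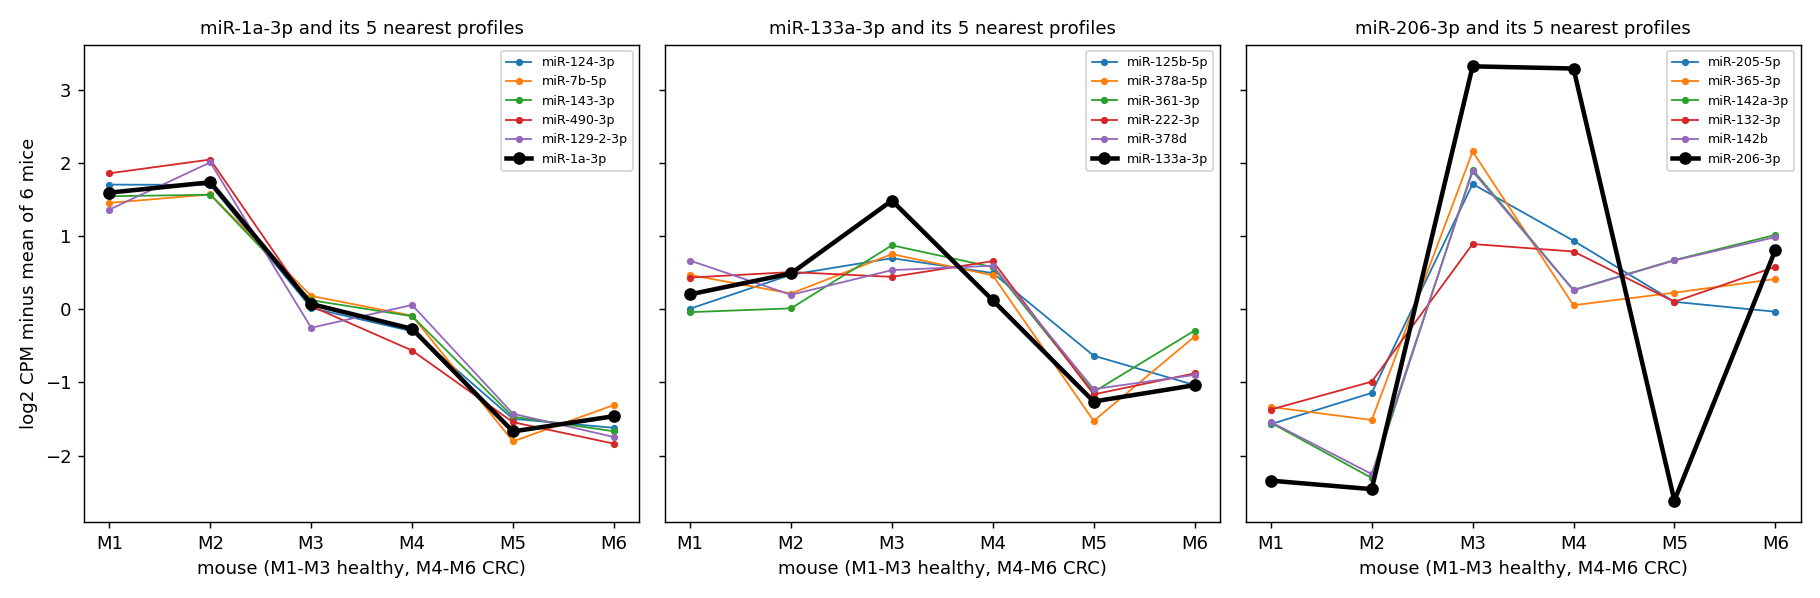
Log2 CPM minus its mean over the 6 mice (vertical axis) for miR-1a-3p, miR-133a-3p and miR-206-3p (thick black) and the 5 other miRNAs nearest to each (thin lines); lines join separate mice to guide the eye. The neighbours of miR-1a-3p lie close to it (0.11 to 0.28 log2 units), whereas the neighbours of miR-206-3p (1.76 to 1.95) have smaller swings between mice.

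Lists of markers were read beside the members. Of all 878 tested miRNAs, 452 had negative values, 9.68% were lower at an unadjusted p under 0.05 (edgeR) and 0% were called lower. The smooth muscle list (miR-145b and the 2 arms each of miR-490, miR-143 and miR-145a) had lower values in CRC for 7 of 7 tested entries, with 0 called, 7 at an unadjusted p under 0.05 and a median log2 fold change of -2.11. Its summed level was 575177, 822277 and 189715 CPM in M1, M2 and M3. In M4, M5 and M6 it was 218121, 45324 and 44273 CPM, so that M4 was above M3 in the sum. Most of the sum in M3 and M4 was miR-145a-5p (118403 CPM in M3 and 156838 CPM in M4). For 6 of the 7 entries M4 was below M3. miR-490-3p, from an intron of a muscarinic receptor gene, had 202, 230 and 57.0 CPM in the healthy and 37.4, 18.8 and 15.3 CPM in the CRC mice. Not all entries followed miR-1a-3p from mouse to mouse. The root mean square difference from miR-1a-3p was 0.61 log2 units for miR-145a-5p, against 0.16 for miR-143-3p. In M1, M2 and M3, miR-143-5p was level (477, 425 and 445 CPM) and miR-490-5p was highest in M3 (7.94, 4.50 and 12.9 CPM). The nerve list had 4 of 5 tested entries with negative values, 0 called and 2 at an unadjusted p under 0.05 (miR-124-3p and miR-7b-5p, both lower). Its sum was 539 to 1047 CPM in healthy and 274 to 453 CPM in CRC mice. The 2 arms of miR-9, also on the nerve list, did not follow miR-1a-3p from mouse to mouse. miR-9-5p was highest in M3, with 123, 109 and 151 CPM in M1, M2 and M3 and 94.8, 78.7 and 67.6 CPM in M4, M5 and M6. miR-9-3p was the entry with a positive value (0.13). Its levels were 19.5, 15.6 and 14.2 CPM in M1, M2 and M3, and 13.6, 19.2 and 21.0 CPM in M4, M5 and M6. The part of muscle and nerve content in the values of miR-1 and miR-133 was not tested.

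Other striated muscle miRNAs had at most 14.5 CPM in a mouse, apart from miR-378a-3p. The myosin gene miRNA miR-208b-3p had 0 counts in M3 and M4, which allows up to 0.330 and 0.479 CPM by counting error, and miR-208b-5p had 0 counts in all 6 mice. The 5 entries that did not pass the filter had at most 0.110 CPM in M3 and 0.958 CPM in M4. miR-499-5p, from another myosin gene, had 2.12, 1.91 and 2.64 CPM in the healthy mice and 0.160, 14.5 and 1.06 CPM in the CRC mice, so M3 and M4 were not high together. miR-486a-5p, known from muscle and red blood cells and named here after its values were seen, had 1.34, 1.12 and 2.75 CPM in the healthy and 3.51, 2.53 and 2.76 CPM in the CRC mice. Like miR-206-3p it was low in M1 and M2 and higher in M3, M4 and M6, but unlike it M5 was near M3 and M6. Its other arm miR-486a-3p, also named after its values were seen, lacked that pattern. It had 4.92, 4.50 and 3.96 CPM in M1, M2 and M3 and 4.15, 3.80 and 5.52 CPM in M4, M5 and M6. Of the 9 listed, 4 passed the filter, and 0 of them were called or at an unadjusted p under 0.05. The list's sum, nearly all miR-378a-3p, a miRNA of energy metabolism, was 4292 to 7707 CPM in healthy and 2214 to 4865 CPM in CRC mice.

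Squamous epithelium miRNAs were highest in the same mice, M3 and M4, as miR-206-3p. The sum of both arms of miR-203 and miR-205 was 8857 CPM in M3 and 7048 CPM in M4, against 1716 and 2592 CPM in M1 and M2 and 4964 and 4562 CPM in M5 and M6. Of these 4 entries, 0 passed the test and 0 had p under 0.05 before adjustment. The part of squamous epithelium content in the miR-206-3p values was not tested. Intestinal epithelium miRNAs were present in all mice, with miR-192-5p at 26530 to 65472 CPM. Of the 8 listed, 7 had negative values, against 452 of all 878 tested miRNAs, and 0 were called or at an unadjusted p under 0.05. Their sums were 110627 to 218956 CPM in healthy and 87900 to 165340 CPM in CRC mice.

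Of the remaining lists, the red blood cell list alone had more than 1 entry at an unadjusted p under 0.05. The fibroblast list had 6 of 6 negative values, 0 called and 1 at an unadjusted p under 0.05. Of all 878 tested miRNAs, 452 had negative values and 9.68% were lower at that p. The fibroblast sums were 7522 to 15652 CPM in healthy and 5089 to 12151 CPM in CRC mice. The endothelial pair miR-126a-3p and miR-126a-5p had sums of 10998 to 13516 CPM in healthy mice and 9384 to 12684 CPM in CRC mice. The leukocyte list had sums of 3813, 3174 and 15253 CPM in M1, M2 and M3 and 7947, 6764 and 8141 CPM in M4, M5 and M6. Like the squamous list it was highest in M3 and higher in M4 than in M1 and M2, but M6 was above M4. Of its entries, 0 of 5 were called or at an unadjusted p under 0.05, as for 0 of the 2 endothelial entries. The red blood cell list had 3 of 3 positive values, 0 called and 2 at an unadjusted p under 0.05, both higher, against 13.6% of all tested miRNAs. Its sums were 293 to 573 CPM in healthy and 482 to 1891 CPM in CRC mice.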

How the data were processed

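Ion Proton small RNA libraries of colorectum were used as 6 profiles, 1 per mouse, per the labels' protocols. The authors aligned reads with BWA to mm10 (GRCm38), per the submitters' processing notes, and deposited 1 table of whole-number counts per mature miRNA, not normalized, per the file headers. The sources used here do not state how reads that match both strands or several hairpins were counted. Columns were matched to mice by name. All rows named a miRNA.

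Counts were fitted with edgeR 4.0.16 (R 4.3.3): TMM, filterByExpr by group (878 of 1915 entries), robust dispersions, glmQLFit and glmQLFTest, two-sided, Benjamini-Hochberg over all tested entries at 0.05. A standard error is the log2 fold change over the square root of F. The common coefficient of biological variation was 0.51. log2 CPM used a prior count of 2, and ratios 0.5 added to each count. DESeq2 1.42.0 and limma-voom (limma 3.58.1) were alternatives. The fit was tested on simulated counts drawn independently for each miRNA and mouse. These lack the resemblance of M3 and M4, so that test does not bear on calls that depend on these mice.

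Members, lists, the rule for named miRNAs and the alternatives were chosen with earlier results of these data known. Named are the members, other entries of their hairpins, up to 4 of each marker list (more for the 2 muscle lists) and the 5 nearest profiles of 3 guide strands. The ratio of miR-133b-3p to miR-206-3p, the pooling of close entries and miR-133c were added after seeing the data. The labels give no batch, and no mouse of one group is paired with a mouse of the other.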

Additional observations from a re-analysis of the deposited data

How the results depend on the processing

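The count of members called was 0 with RLE, upper quartile or total-count scaling, at 50 CPM, with limma-voom, non-robust fits or GC trends removed by loess (span 0.75), and with miR-133a-3p and miR-133b-3p, and miR-1a-3p and miR-1b-5p, summed. It was 2 without a filter (0.627% of all tested lower), 4 with DESeq2, 4 at a threshold of 0.10 (1.82% of all lower), 3 with reverse-complement entries summed (2 pooled entries) and 6 without M3 and M4. Leaving out each mouse in turn gave 0 to 5. The count of all miRNAs called, 20, was 0 (limma-voom, 50 CPM, without M1, M5 or M6) to 576 (without M3 and M4), and 111 with DESeq2. In the 18 alternatives the members' median log2 fold change stayed negative and within the spread between mice. For miR-206-3p the log2 fold change was negative without M1 (-0.37), M2 (-0.37) or M4 (-1.84), with 4.50 as the highest without a mouse; the sign thus rests on single mice. The other 6 members kept negative values in all alternatives that tested them. The differences of the 9 ratios moved by less than the spread between mice, but single mice changed their size. Without a mouse, miR-133a-3p ranged from 0.32 to 1.73 to miR-1a-3p and from 0.21 to 1.56 to miR-143-3p. miR-206-3p to miR-1a-3p ranged from 1.99 to 5.77, miR-133b-3p to miR-206-3p from -3.79 to -1.34 and miR-1a-3p to miR-143-3p from -0.24 to -0.04. Without M2, miR-1a-2-5p to miR-1a-3p (0.34) became -0.08 and miR-133b-3p to miR-133a-3p (0.10) became -0.09. The causes were not tested. Depth limits miR-1a-2-5p, which had at most 51 reads in a mouse.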

Other observations

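Of the other entries of these families, miR-206-5p, miR-133b-5p and miR-133c were near the limit of detection. miR-206-5p, the passenger strand of miR-206, had 1, 1 and 4 reads in M1, M2 and M3 and 1, 2 and 0 in M4, M5 and M6. In M3 and M4, where miR-206-3p had 1257 and 849 reads, its other arm thus had 4 and 1. miR-133b-5p had 6, 3 and 4 reads in the healthy and 1, 13 and 5 in the CRC mice, and its highest count was in M5, where miR-133b-3p was lowest in CPM. miR-133c, which shares the miR-133 seed and 18 of 22 positions with miR-133b-3p, had 7, 6 and 4 reads in the healthy and 1, 7 and 1 in the CRC mice. miR-1b-3p was more frequent, with 44, 46 and 59 reads in the healthy and 11, 1 and 6 in the CRC mice, a log2 change of -2.34 (SE 0.67, edgeR adjusted p = 0.0842). Its counts overlapped those of its reverse complement miR-1a-2-5p without following them in every mouse: in M3 it had 59 reads against 35, and in M5 it had 1 against 6.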
